A study of Mus musculus with 10 samples.

Results

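Genes of endoplasmic reticulum (ER) stress and the unfolded protein response were examined in RNA-seq libraries of proximal small intestine from 5 *Zip14* (*Slc39a14*) knockout (KO) and 5 wild-type (WT) mice. The set comprised *Hspa5*, *Sdf2l1*, *Herpud1*, *Xbp1*, *Atf4*, *Ddit3*, *Atf3*, *Asns*, *Chac1* and *Trib3*, named by symbol because ZIP14, a zinc transporter of the plasma membrane, has been linked to adaptation to ER stress. All 10 were found by their Ensembl gene ID among the 35275 IDs counted, and all 10 had enough counts for the test across genes. Mice of both groups were 8 to 10 weeks of age by the sample labels, which name no treatment, and 1 library was made per mouse from frozen segments with all their cell types. By the methods, the gene was deleted in every tissue and both genotypes came from crosses of heterozygous mice, whereas the series title names a deletion in enterocytes. Sex is not given per mouse, and males and females were used. Libraries held between 16729787 and 20819678 counts in WT mice and between 17118742 and 19414828 counts in KO mice. Levels are given as CPM after TMM scaling, that is counts scaled to a common library size and corrected for differences in composition, and fold changes are those of KO against WT mice on the log2 scale from edgeR's quasi-likelihood test.

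The unfolded protein response is set off when unfolded proteins collect in the ER. The sensor IRE1 splices the *Xbp1* mRNA, the sensor ATF6 is cut to release a transcription factor, and both raise chaperones and the machinery that removes misfolded proteins. The sensor PERK slows protein synthesis and thereby favours translation of ATF4, which drives genes of amino acid supply and, with CHOP (*Ddit3*), genes of cell death. ATF4 is also reached from amino acid shortage and other stresses, a route called the integrated stress response. In the intestine the response is best known from cells that secrete much protein, the Paneth, goblet and plasma cells. Counts per gene do not distinguish spliced from unspliced *Xbp1* and do not measure translation of *Atf4* or cleavage of ATF6.

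The groups differed in the deleted gene and also in markers of intestinal position. *Slc39a14* fell to 0.393 of the WT level in KO mice (log2 -1.35 with a standard error of 0.22, edgeR adjusted p = 0.00184), and KO replicate 1, at 160.1 CPM, had more of it than the other KO libraries (78.5 to 93.8 CPM). The KO libraries held 30.1% to 61.5% of the WT mean, and counts per gene do not show whether the reads came from the deleted part. For *Slc39a14*, genotype and intestinal position cannot be told apart, so its level is no independent check of the labels. Among markers of the ileum, 5 of 5 were called higher in KO mice, and their summed level was 199 to 237 CPM in WT and 3245 to 10499 CPM in KO libraries. Among markers of the proximal small intestine, 2 of 5 were called lower, and their sum was 3689 to 3986 CPM in WT and 34.2 to 797 CPM in KO libraries. That sum was mostly *Lct* (3363 to 3783 CPM in WT, 0.315 to 702 CPM in KO), which did not pass the threshold itself (adjusted p = 0.0632 by edgeR). *Gata4* and *Onecut2* were the genes called, while *Cybrd1* and *Slc40a1* were not, with *Slc40a1* at 11.4 to 38.7 CPM in WT and 16.6 to 63.8 CPM in KO libraries. Smooth muscle markers were called higher in 9 of 10 cases (1626 to 2659 CPM in WT, 3598 to 10438 CPM in KO), goblet cell markers were higher in 6 of 8 (11494 to 17520 CPM and 17668 to 25354 CPM), and enterocyte markers were lower in 6 of 10 (30822 to 43698 CPM and 13501 to 31266 CPM). None of 8 Paneth cell markers was called by edgeR (2 at an unadjusted p under 0.05, 8353 to 26717 CPM and 7936 to 35556 CPM), 1 of 8 plasma cell markers was higher (5174 to 10453 CPM and 1680 to 11358 CPM), and 1 of 7 macrophage markers was lower (250.3 to 351 CPM and 187 to 332 CPM). Of 10 immediate early genes, which respond within minutes to handling, 1 was lower (682 to 793 CPM and 581 to 754 CPM). Of 9 pancreatic acinar genes only 2 were tested and neither was called by edgeR (1 at an unadjusted p under 0.05, 6.21 to 16.2 CPM and 7.32 to 28.7 CPM), with *Amy2a5* at 0 in every library. In tissue of mixed cells, fewer cells of a type and less RNA per cell cannot be told apart.

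Of the 10 genes, only *Trib3* passed the test between the groups, and it fell. Its call was lost with a smooth muscle score in the model, as were most calls, with 10 higher and 8 lower left of all genes. The sums of the smooth muscle markers did not overlap between the groups, so that model can hardly tell genotype from the score. Without the score, the other 9 of the 10 genes did not pass the threshold, with log2 fold changes between -0.33 (*Herpud1*) and 0.70 (*Chac1*). Of all 15610 genes in that fit, 4660 (29.9%) passed the adjusted threshold of 0.05, with 16.0% higher and 13.9% lower, and in 21.1% the groups did not overlap. None of the 10 genes was called higher, and at an unadjusted p under 0.05 the count was also 0 higher and 1 lower, by edgeR and by DESeq2. The median log2 fold change was 0.05 over the 10 genes and 0.03 over all genes tested, and 5 of the 10 values were above 0.

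**Figure D1:**
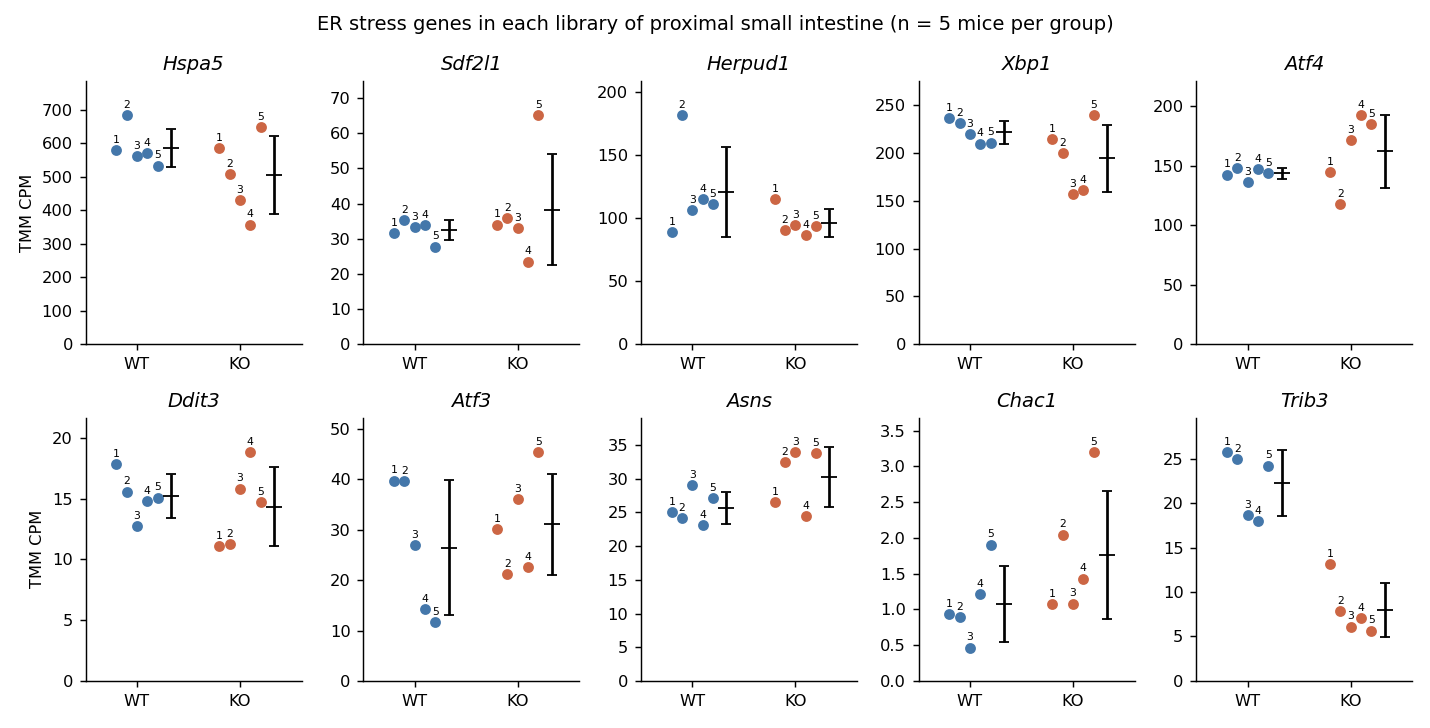
TMM-scaled CPM (y axes, from 0) of the 10 genes in 5 WT (blue) and 5 KO (orange) libraries, numbered by replicate, with the mean and SD in black. The KO libraries of *Trib3* lie between 5.67 and 13.1 CPM, below every WT library, while the groups overlap in the other panels.

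Levels per length, as CPM per kilobase of annotated exon, placed *Hspa5* first and *Chac1* last in both groups. In WT libraries *Hspa5* was at 138 ± 13.5 (SD, n = 5), followed by *Xbp1* at 68.2 ± 3.66, *Atf4* at 60.8 ± 2.01, *Herpud1* at 51.6 ± 15.2 and *Sdf2l1* at 29.2 ± 2.58. Below these were *Atf3* at 12.3 ± 6.23, *Trib3* at 10.5 ± 1.74, *Asns* at 9.39 ± 0.878, *Ddit3* at 8.87 ± 1.07 and *Chac1* at 0.661 ± 0.325. *Herpud1* overlapped with *Atf4*, and *Atf3*, *Trib3*, *Asns* and *Ddit3* overlapped with each other, whereas the remaining neighbours in this order were separate in all WT libraries. In KO libraries *Trib3* went from place 7 to place 9 of the 10 genes per length, at 3.75 ± 1.42, and *Atf4* and *Xbp1* exchanged places at 68.8 ± 13.0 and 59.9 ± 10.8 with overlapping ranges.

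*Hspa5*, *Sdf2l1* and *Herpud1* are known targets of the ATF6 and XBP1 branches. *Hspa5* encodes BiP, the main HSP70 chaperone of the ER, and is at chr2:34771970-34777547 (GRCm38, plus strand). WT replicates 1 to 5 had 579, 683, 562, 570.1 and 533 CPM, and KO replicates 1 to 5 had 585, 507, 431, 357 and 648 CPM. KO replicates 2, 3 and 4 were below every WT library, and KO replicates 1 and 5 were within the WT range. The log2 fold change of -0.21 (95% interval -0.57 to 0.14, adjusted p = 0.334 by edgeR) did not pass the threshold.

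*Sdf2l1*, a partner of BiP in the ER, is at chr16:17130138-17132383 (minus strand). It was counted at 31.6, 35.2, 33.4, 33.8 and 27.8 CPM in WT replicates 1 to 5 and at 34.0, 35.8, 33.1, 23.5 and 65.1 CPM in KO replicates 1 to 5. KO replicate 5 stood above all other libraries, at 201% of the WT mean, and KO replicate 4 had the lowest, at 72.6%. Its fold change was 0.24 on the log2 scale (95% interval -0.25 to 0.73, adjusted p = 0.429 by edgeR) and -0.03 without KO replicate 5, so its direction rested on that library.

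*Herpud1*, which builds the complex for ER-associated degradation, is at chr8:94386438-94395377 (plus strand), with the antisense gene *Gm15890* overlapping it. WT replicates 1 to 5 had 88.9, 181, 106, 115 and 111 CPM, and KO replicates 1 to 5 had 115, 90.7, 94.7, 86.2 and 93.8 CPM. WT replicate 2 stood above all others, and only KO replicate 4 was below every WT library. The log2 fold change of -0.33 (95% interval -0.71 to 0.05, adjusted p = 0.171 by edgeR) did not pass the threshold and was -0.13 without WT replicate 2.

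*Xbp1*, the transcription factor activated by IRE1, is at chr11:5520659-5525893 (plus strand). Its WT libraries were close together, at 236, 231, 219.97, 209.9 and 211 CPM in replicates 1 to 5. KO replicates 1 to 5 had 215, 200.3, 157, 161 and 239 CPM, so that KO replicates 2, 3 and 4 were below every WT library and KO replicate 5 was above them. KO against WT mice gave a log2 fold change of -0.19 (95% interval -0.46 to 0.09, adjusted p = 0.266 by edgeR).

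Promoters of the 10 genes were searched for elements known from this response. The windows were those of RefSeq (GRCm38.p6), from 250 bases before to 50 bases after a start site, and each of the 10 genes had 1 window. The start sites of *Atf4* and *Sdf2l1* were the gene starts of GENCODE M21, and the others differed from the gene starts given with each gene. The RefSeq site of *Ddit3* was 19 bases downstream of the GENCODE start and that of *Xbp1* 18 bases upstream. The RefSeq site of *Hspa5* (chr2:34772090) was 120 bases downstream of the GENCODE start, that of *Herpud1* 9 bases upstream, that of *Trib3* 28 bases upstream, that of *Asns* 45 and that of *Chac1* 13 bases downstream, and that of *Atf3* 34706 bases downstream, within the gene. The ER stress response element, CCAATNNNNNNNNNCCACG on either strand, was in 0.119% of 32851 promoters and in 1 of the 10. Its second form, ATTGG, any base and then CCACG, was in 0.037% of promoters and in 1 of the 10, and the unfolded protein response element TGACGTGG was in 0.676% of promoters and in none of the 10. The match of *Hspa5* lay 65 bases before its RefSeq start site (chr2:34772020-34772048, plus strand), which is inside the GENCODE gene. That of *Herpud1* lay 52 bases before its RefSeq start site (chr8:94386368-94386396, plus strand), upstream of the GENCODE gene start. Both stretches are shown because they hold elements known from the answer to ER stress, with the matching letters in capitals:
Hspa5: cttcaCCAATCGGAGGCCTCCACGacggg
Herpud1: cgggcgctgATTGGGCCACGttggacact
Neither gene with such an element was called, and the lack of a match in the other 8 windows says only that these letters are not in them.

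*Atf4*, the transcription factor of the integrated stress response, is at chr15:80255184-80257541 (plus strand). WT replicates 1 to 5 had 143, 148, 136, 147 and 144 CPM, which was the narrowest spread of the 10 genes (3.30% of the mean). KO replicates 1 to 5 had 144, 118, 171, 192 and 185 CPM. KO replicates 3, 4 and 5 were above every WT library, KO replicate 2 was below them all, and KO replicate 1 was within the WT range. The difference of 0.18 on the log2 scale did not pass the threshold (95% interval -0.10 to 0.46, adjusted p = 0.305 by edgeR).

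*Ddit3*, which encodes CHOP, is at chr10:127290774-127296288 (plus strand), where *Mars* and *Gm4189* overlap it on the other strand. It was low in every library, at 17.9, 15.6, 12.7, 14.8 and 15.1 CPM in WT replicates 1 to 5 and at 11.1, 11.3, 15.8, 18.8 and 14.7 CPM in KO replicates 1 to 5. KO replicates 1 and 2 were below every WT library and KO replicate 4 was above them. The log2 fold change of -0.08 (95% interval -0.44 to 0.27, adjusted p = 0.718 by edgeR) turned to 0.05 when libraries were scaled by their size alone.

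*Atf3*, a stress-induced factor of the ATF family that is also an immediate early gene, is at chr1:191170296-191218039 (minus strand), with *Gm24748* on the other strand. The WT libraries were split, with 39.8, 39.7 and 26.9 CPM in replicates 1 to 3 and 14.2 and 11.7 CPM in replicates 4 and 5. KO replicates 1 to 5 had 30.1, 21.1, 36.2, 22.6 and 45.4 CPM, and only KO replicate 5 was above every WT library. Its log2 fold change of 0.23 had a wide interval (95% interval -0.54 to 1.01, adjusted p = 0.640 by edgeR), and the spread of the WT libraries was 50.7% of their mean. The split of the WT libraries was not particular to *Atf3*. *Onecut2*, a proximal marker, had 68.1, 124 and 91.6 CPM in WT replicates 1 to 3 and 18.1 and 20.2 CPM in WT replicates 4 and 5.

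*Asns*, asparagine synthetase and a target of ATF4, is at chr6:7675169-7693254 (minus strand). WT replicates 1 to 5 had 25.0, 24.1, 29.0, 23.1 and 27.1 CPM, and KO replicates 1 to 5 had 26.5, 32.4, 33.9, 24.4 and 33.8 CPM. KO replicates 2, 3 and 5 were above every WT library, and KO replicates 1 and 4 were within the WT range. *Asns* differed by 0.24 on the log2 scale (95% interval -0.02 to 0.49, adjusted p = 0.147 by edgeR). It passed the threshold only under scaling by library size (0.36, adjusted p = 0.0423 by edgeR), which also moved the median of all genes to 0.15.

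*Chac1*, a glutathione-degrading enzyme that is a sensitive target of ATF4, is at chr2:119351229-119354381 (plus strand). It had few counts, with 18, 14, 8, 22 and 34 counts in WT replicates 1 to 5 and 19, 39, 20, 30 and 61 counts in KO replicates 1 to 5. In CPM the WT libraries were between 0.467 and 1.91 and the KO libraries between 1.07 and 3.20, with KO replicates 2 and 5 above every WT library. Its log2 fold change of 0.70 (95% interval -0.19 to 1.59, adjusted p = 0.207 by edgeR) was the highest of the 10 genes and was not past the threshold.

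*Trib3*, a pseudokinase that is induced by ATF4 and CHOP and restrains both ATF4 and AKT signalling, is at chr2:152337422-152344032 (minus strand). WT replicates 1 to 5 had 25.7, 24.9, 18.6, 18.0 and 24.2 CPM, and KO replicates 1 to 5 had 13.1, 7.82, 6.10, 7.10 and 5.67 CPM. All 5 KO libraries were below all 5 WT libraries. The mean fell from 22.3 ± 3.70 CPM to 7.96 ± 3.01 CPM (SD, n = 5 each), or to 0.357 of the WT level (log2 -1.49, 95% interval -1.99 to -0.99, standard error 0.23, edgeR adjusted p = 0.00139). KO replicate 1 had the highest level of the KO libraries, and leaving it out moved the fitted value to -1.74. With each mouse left out in turn, it stayed between -1.74 and -1.39 and past the threshold. With a score of smooth muscle markers in the model, the call was lost (-0.99, edgeR adjusted p = 0.298), and of all genes 10 were then called higher and 8 lower.

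**Figure D2:**
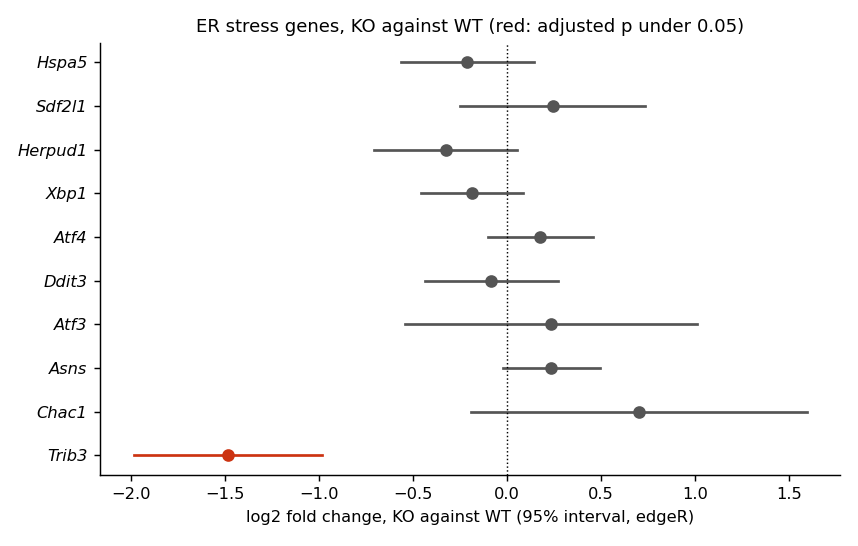
Log2 fold change of KO against WT mice (x axis) with its 95% interval for the 10 genes, from edgeR, n = 5 mice per group. *Trib3* at -1.49 (interval -1.99 to -0.99, red) is the only interval that leaves out 0, and the other 9 (grey) include it.

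ATF4 acts on *Trib3*, *Asns*, *Chac1*, *Atf3* and *Ddit3* through C/EBP-ATF response elements. A search for TGATGNAA on either strand found a match in 3.97% of the 32851 promoters and in 5 of the 10 genes. They are shown because *Trib3*, which fell, carries such letters as do *Asns*, *Chac1*, *Atf3* and *Herpud1*, which were not called. Capitals mark the match, which for *Atf3*, *Chac1*, *Herpud1* and *Trib3* is read on the opposite strand. The stretches are chr1:191183425-191183454 (minus strand, *Atf3*), chr8:94386306-94386335 (plus strand, *Herpud1*), chr2:152344028-152344057 (minus strand, *Trib3*), chr6:7693214-7693243 (minus strand, *Asns*) and chr2:119351038-119351067 (plus strand, *Chac1*):
Atf3: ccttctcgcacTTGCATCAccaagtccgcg
Herpud1: accacggcgggTTGCATCAgcccgcacccc
Trib3: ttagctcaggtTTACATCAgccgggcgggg
Asns: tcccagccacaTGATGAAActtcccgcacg
Chac1: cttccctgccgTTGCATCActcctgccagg
The match of *Trib3* began 14 bases after its RefSeq start site, which is still upstream of the GENCODE gene start, and that of *Asns* began 23 bases before its RefSeq start site, inside the GENCODE gene. A match of letters is a description of the window and not evidence of binding in these mice.

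Seen by library, the KO mice did not move together. KO replicate 5 held the highest value of all 10 libraries for *Sdf2l1*, *Xbp1*, *Atf3* and *Chac1* and the second highest for *Hspa5*. KO replicate 4 held the lowest value of all 10 libraries for *Hspa5*, *Sdf2l1* and *Herpud1* and the highest for *Atf4* and *Ddit3*. These libraries lay at opposite ends of the KO group for *Hspa5* and *Sdf2l1*, while both were below every WT library for *P4hb*, another folding enzyme, at 708 and 964 CPM. KO replicates 4 and 5 were both high for *Atf4*, at 134% and 129% of the WT mean, and both low for *Trib3*, at 31.9% and 25.4%. KO replicate 1 was the nearest to WT mice for *Trib3*, at 58.9% of the WT mean.

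**Figure D3:**
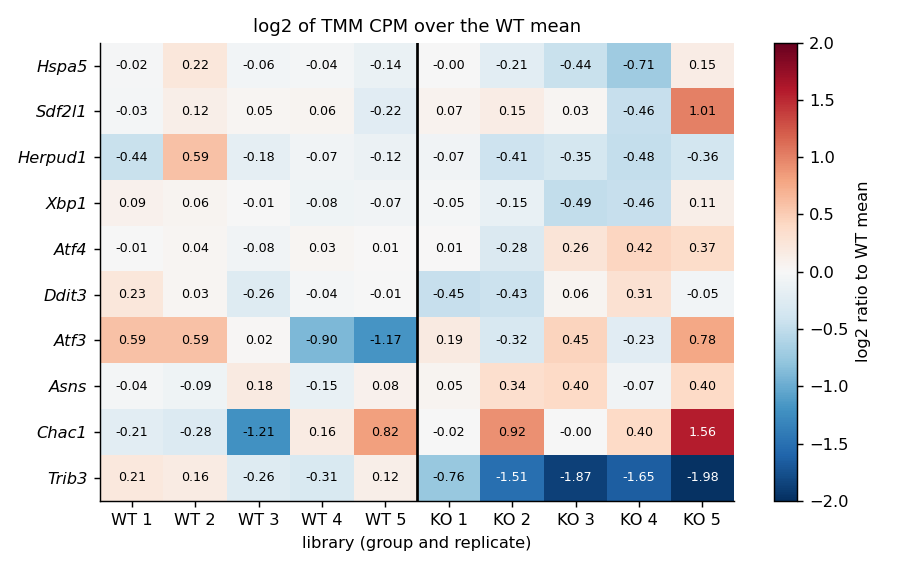
Log2 of the CPM over the WT mean for the 10 genes (rows) in 10 libraries (columns), with the colour scale from -2 to 2. The *Trib3* row is blue in all KO libraries (-0.76 to -1.98), whereas *Sdf2l1* ranges from -0.46 in KO replicate 4 to 1.01 in KO replicate 5.

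The order of the KO libraries was compared between the 10 genes and the 10 marker lists, and 2 of 100 pairs had the same order, as had 1 of 100 in WT libraries. With so few libraries, orders also match by chance, at a rate that was not computed. The matching pairs are given as descriptions only. The order of the KO libraries by *Hspa5*, replicates 5, 1, 2, 3 and 4 from high to low, was also their order by the sum of the plasma cell markers, at 11358, 6681, 5107, 4325 and 1680 CPM. The WT libraries did not share an order between these measures, since plasma cell markers were highest in WT replicate 3 and *Hspa5* in WT replicate 2. The other KO pair was *Atf4* and the ileum markers, with replicates 4, 5, 3, 1 and 2 from high to low, and the WT pair was *Asns* and the pancreatic acinar genes. KO replicate 4 also had the highest sum of smooth muscle markers, at 10438 CPM. For *Trib3*, the order of the KO libraries began with replicates 1 and 2, which were also first by the sum of the proximal markers, at 797 and 327 CPM against 34.2 to 69.0 CPM in replicates 3 to 5. The remaining KO libraries did not share an order (replicates 4, 3 and 5 by *Trib3*, replicates 5, 4 and 3 by the proximal markers), nor did the WT libraries, which began with replicate 1 by *Trib3* and with replicate 5 by the proximal markers. Within that list *Gata4*, a transcription factor of the proximal small intestine, was at 59.4 CPM in KO replicate 1, at 13.8 CPM in KO replicate 2 and at 0.572 to 5.24 CPM in the others, against 160.3 to 217 CPM in WT libraries, whereas *Slc40a1* was highest in KO replicate 5 and *Onecut2* was lowest in KO replicate 1. The part of intestinal position and of cell mixture in the values of *Trib3* was not tested.

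**Figure D4:**
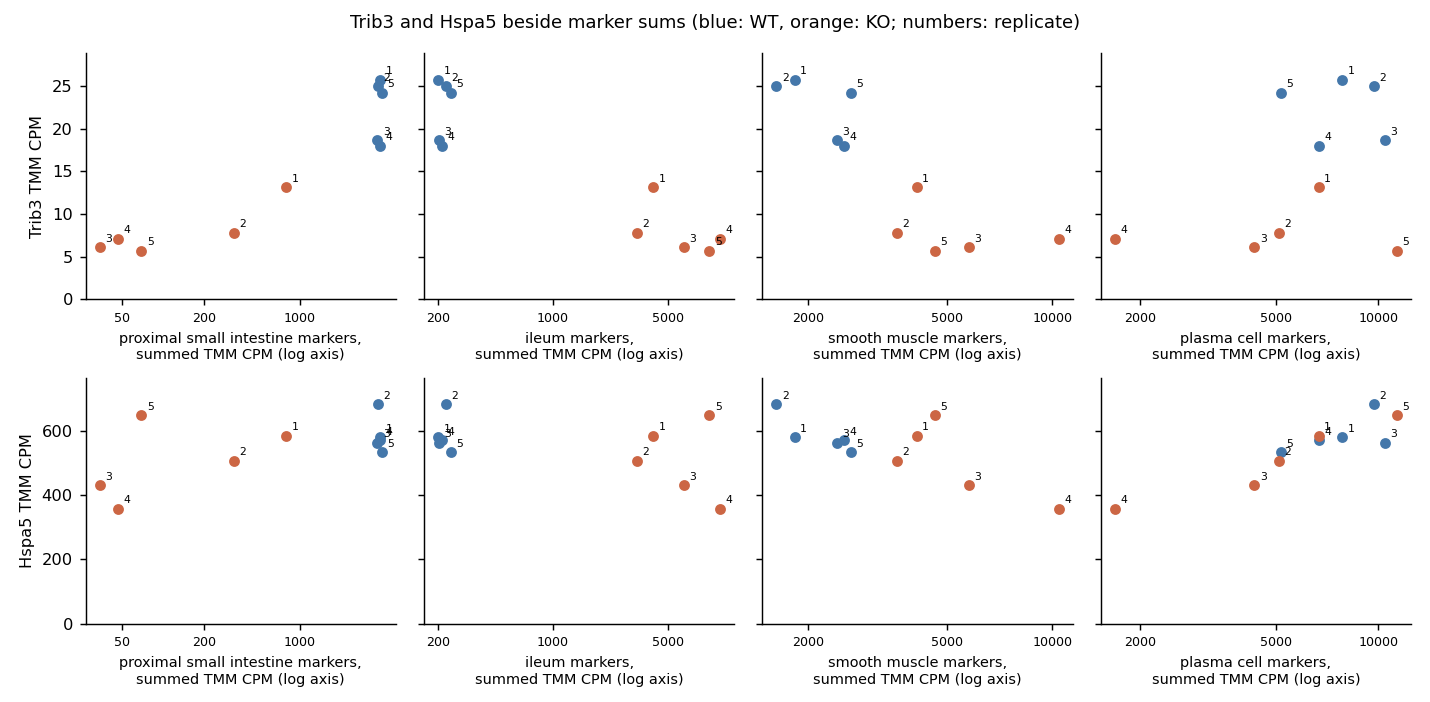
*Trib3* (top) and *Hspa5* (bottom) in CPM (y axes, from 0) beside the summed CPM of 4 marker lists (x axes, log scale) in 5 WT (blue) and 5 KO (orange) libraries, numbered by replicate. Proximal markers lie between 34.2 and 797 CPM in KO and at 3689 CPM or more in WT libraries, and KO replicate 4, with the lowest plasma cell sum at 1680 CPM, has the lowest *Hspa5* at 357 CPM.

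The wider response was followed in 90 further genes in 5 lists, of which 89 were tested. There were 12 called higher and 14 called lower, which is 26 of 89 beside the 29.9% of all genes, with a median log2 fold change of -0.01. In 63 genes the test was not passed. Scaled by library size alone, 23 were higher and 10 lower, so the balance between directions depends on the normalization. Across all genes, the share of higher genes among those called was 53.5% after TMM scaling and 69.4% by library size alone.

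Among 18 sensors and regulators of the response, 3 rose, 4 fell and 11 were not called, with a median log2 fold change of -0.04. *Creb3l3*, a transcription factor of liver and enterocytes that governs lipid genes, fell from 604 ± 56.4 CPM in WT to 152 ± 83.5 CPM in KO mice (log2 -1.99 with a standard error of 0.32, edgeR adjusted p = 0.00182). *Creb3l2* fell from 197 ± 8.10 to 45.9 ± 18.6 CPM (-2.10, adjusted p = 2.86e-04 by edgeR), and *Creb3l1* rose from 22.8 ± 4.45 to 52.2 ± 14.6 CPM (2.29-fold, adjusted p = 0.00225 by edgeR). For these 3 the KO libraries were separate from all WT libraries. *Creb3*, which was named after its values were seen, had 48.9 ± 8.57 CPM in WT and 37.3 ± 4.36 CPM in KO mice (-0.39, adjusted p = 0.0440 by edgeR), and its call was lost in 12 of 19 alternatives, 7 of them with a mouse left out. *Ppp1r15a*, the stress-induced GADD34 that restores protein synthesis, had a log2 fold change of 0.65 (adjusted p = 0.0287 by edgeR) with 4 of 5 KO libraries above every WT library, and its call was lost in 7 of 10 fits that left out a mouse. *Rtcb*, the ligase that joins spliced *Xbp1*, had 0.22 (adjusted p = 0.0495), and *Eif2ak1*, the heme-sensing kinase of eIF2, had -0.39 (adjusted p = 0.0145, all by edgeR). The call of *Rtcb* was lost in 16 of 19 alternatives, held only without KO replicate 2 when mice were left out, and was lost in 7 of the 9 other settings.

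The smooth muscle and ileum markers above moved with the same contrast, and so did the enterocyte markers. In KO replicate 1, whose sum of proximal markers was the nearest to WT mice, *Creb3l3* was at 286 CPM and *Creb3l2* at 75.4 CPM, the highest values of the KO group. That library also had the highest enterocyte sum of the KO group, at 31266 CPM, and the most *Slc39a14*, at 160.1 CPM. The part of each in the values of *Creb3l3* and *Creb3l2* was not tested.

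Among 20 ER chaperones and folding enzymes, 2 rose, 3 fell and 15 were not called, with a median log2 fold change of 0.05. *P4hb*, the protein disulfide isomerase that is also a subunit of the triglyceride transfer protein, fell from 2571 ± 559 to 936 ± 237 CPM (log2 -1.46 with a standard error of 0.21, edgeR adjusted p = 9.84e-04). Its WT libraries were between 1955 and 3291 CPM and its KO libraries between 708 and 1320 CPM. The ER oxidases *Ero1lb* and *Ero1l* had log2 fold changes of -1.17 and -0.53 (adjusted p = 0.00498 and 0.0496 by edgeR). *Pdia5*, another disulfide isomerase, rose by 0.84 and *Sil1*, the nucleotide exchange factor of BiP, by 0.46 (adjusted p = 0.00375 and 0.00458 by edgeR). *Ero1l* was past the threshold only without WT replicate 4, KO replicate 2 or KO replicate 3 when mice were left out.

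Among 18 genes of ER-associated degradation and translocation, 1 rose, 3 fell and 14 were not called, with a median log2 fold change of -0.22 and 4 values above 0. *Os9*, a lectin that hands glycoproteins to the degradation complex, fell by 0.51 on the log2 scale, from 343 ± 15.9 to 241 ± 39.7 CPM (adjusted p = 0.00992 by edgeR). *Sel1l*, the scaffold of the HRD1 complex, had -0.44 and *Derl1*, a channel component, had -0.27 (adjusted p = 0.0392 and 0.0401 by edgeR). With mice left out in turn, the call of *Sel1l* held only without KO replicate 1 or 2 (adjusted p up to 0.0775), and that of *Derl1* was lost without WT replicate 1, 2 or 3 or KO replicate 2 or 3 (up to 0.0979, all by edgeR). *Sec61b*, a subunit of the translocation channel, rose from 76.6 ± 2.03 to 104 ± 13.7 CPM (0.44, adjusted p = 0.00737 by edgeR). *Vcp*, the segregase of the pathway, had a log2 fold change of -0.13 (adjusted p = 0.380 by edgeR).

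Among 28 tested genes of the integrated stress response, 5 rose, 4 fell and 19 were not called, with a median log2 fold change of 0.17 and *Fgf21* below the filter on low counts. *Nupr1*, a stress-induced cofactor, rose from 19.3 ± 11.5 to 47.8 ± 16.3 CPM (1.31, adjusted p = 0.0261 by edgeR), a call that was lost without WT replicate 1 or 2 or KO replicate 3 (adjusted p up to 0.0649). *Eif4ebp1*, a translation repressor, rose from 15.9 ± 1.23 to 31.8 ± 10.4 CPM (adjusted p = 0.00655), and the transcription factor *Atf5* rose from 11.5 ± 1.17 to 20.2 ± 5.21 CPM (0.82, adjusted p = 0.00743, both by edgeR). *Slc3a2*, the heavy chain of several amino acid transporters, fell from 404 ± 14.3 to 148 ± 57.7 CPM (-1.45, adjusted p = 0.00139 by edgeR). *Aldh18a1*, of proline and ornithine synthesis in enterocytes, fell to 0.406 and *Cebpb*, a partner of ATF4, to 0.618 of the WT level (adjusted p = 0.00416 and 0.00368 by edgeR). Targets of ATF4 lay on both sides, with *Trib3* and *Slc3a2* lower and *Eif4ebp1* and *Atf5* higher.

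Among 5 targets of CHOP and genes of cell death, *Casp12*, a caspase of the ER, was called higher (0.66, adjusted p = 0.0266 by edgeR) with 4 of 5 KO libraries above every WT library. That call was lost without WT replicate 1, 2 or 3 or KO replicate 5 (adjusted p up to 0.0669 by edgeR). *Bcl2l11*, which encodes the death factor BIM, had a log2 fold change of -0.09 (adjusted p = 0.736 by edgeR), and the median of the 5 was 0.19.

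**Figure D5:**
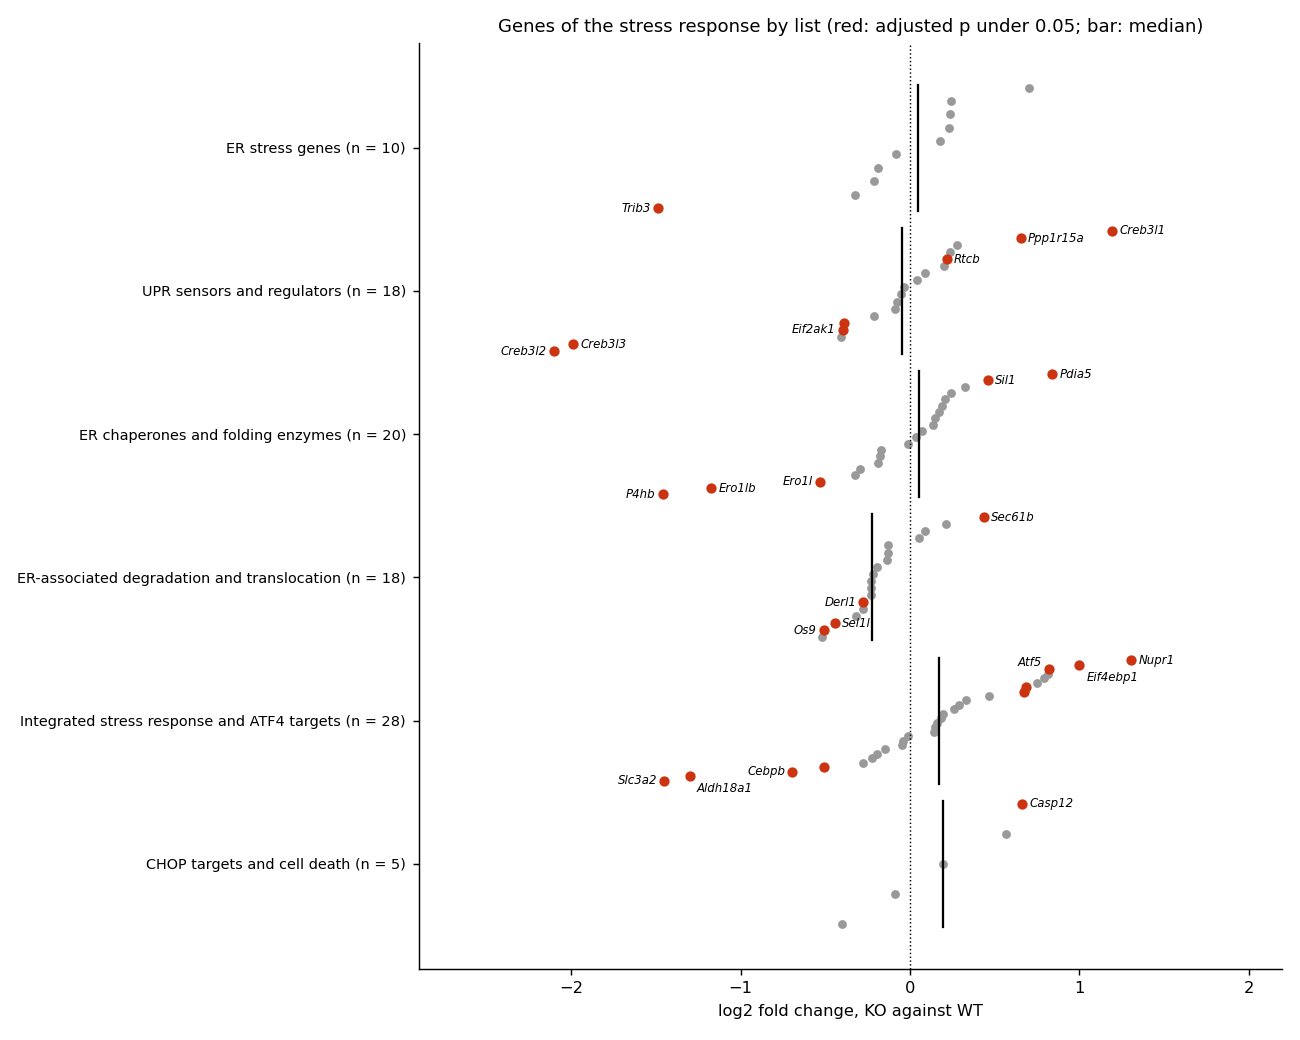
Log2 fold change of KO against WT mice (x axis) for the 10 ER stress genes and 5 wider lists, with 1 point per tested gene, genes with an adjusted p under 0.05 by edgeR in red and the list median as a black bar. Medians lie between -0.22 and 0.19, and the lowest values are those of *Creb3l2* (-2.10), *Creb3l3* (-1.99), *Trib3* (-1.49), *P4hb* (-1.46) and *Slc3a2* (-1.45).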

How the data were processed

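RNA-seq was done on proximal small intestine of 5 WT and 5 KO mice. For each mouse the authors deposited a table of raw read counts by Ensembl ID, and p-values measure the spread between mice. The submitters' processing notes name FastQC 0.11.9, Trimmomatic, HISAT2 2.0.4, SAMtools 1.3.1, DESeq2 1.14.1 and the build GRCm38. The read counter, annotation, use of strand and handling of reads with several matches are each not given in sources used here, so genes with an overlapping gene or a close copy are less certain. GENCODE M21, of the same build, named 34490 of the 35275 IDs. Groups were compared in R 4.3.3 with edgeR 4.0.16 (quasi-likelihood test, TMM, filterByExpr with a minimum count of 10 and a minimum total of 15), with Benjamini-Hochberg adjustment over the 15610 genes tested and a threshold of 0.05. Standard errors and 95% intervals are those of that model. CPM per kilobase used the merged exon length of GENCODE M21.

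The 10 genes and all lists were chosen with earlier results of these data known. Named genes were the 10, *Slc39a14*, and from each wider list up to 3 called genes at either end of the fold changes, plus the gene of highest CPM. From each marker list at most the 2 most abundant genes were to be named. *Creb3*, *Amy2a5* and the genes of the proximal list were chosen after their values were seen. Marker lists covered smooth muscle, enterocyte, ileum, proximal small intestine, goblet, Paneth, plasma and pancreatic acinar cells, macrophages and immediate early genes. Alternatives were RLE normalization, library size only, DESeq2 1.42.0, robust dispersion, no filter on low counts or a minimum mean of 10, a block for replicate number, a covariate scoring smooth muscle or secretory (goblet, Paneth and plasma cell) markers, and leaving out each mouse. The tests were checked on simulated counts with 200 changed genes and the same dispersion for every gene in both groups. In these data more genes were called and the spread was larger in KO mice, so the check says little about error rates here. No pair of libraries in a group was a duplicate.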

Additional observations from a re-analysis of the deposited data

Results flagged for a closer look

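In 22 groups of 5 libraries (the 10 genes and *Slc39a14* in WT and KO mice), a library was compared with the others by its gap to the nearest as a share of the range, with 0.71 as the limit. Chance gives about 1 in 20 such cases. *Herpud1* in WT replicate 2, at 181 CPM, stood above the other WT libraries, which had between 88.9 and 115 CPM (gap 0.72 of the range). *Trib3* in KO replicate 1, at 13.1 CPM, stood above the other KO libraries, which had between 5.67 and 7.82 CPM (gap 0.712). *Slc39a14* in KO replicate 1, at 160.1 CPM, stood above the other KO libraries, which had between 78.5 and 93.8 CPM (gap 0.813).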

How the results depend on the processing

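*Trib3* was called lower in 18 of 19 alternatives, with log2 fold changes between -1.74 and -1.37, and was -0.99 (adjusted p = 0.298 by edgeR) with the smooth muscle score. No gene of the 10 was called higher except *Asns* by library size alone (1 gene, log2 fold change 0.36). *Trib3*, *Asns*, *Chac1* and *Atf3* kept their direction in all alternatives run. With the score of smooth muscle markers, whose sum did not overlap between the groups, the genes called fell to 10 higher and 8 lower of all genes, to 0 of the 10 genes by edgeR (1 higher and 1 lower at an unadjusted p under 0.05), and to 0 higher and 0 lower of the wider genes (19 and 8 unadjusted), and *Slc39a14* had -0.60 (adjusted p = 0.451 by edgeR). Signs turned under that score for *Hspa5* (0.42), *Atf4* (-0.17), *Xbp1* (0.22), *Herpud1* (0.0814), *Ero1l* (0.00759), *Sel1l* (0.0484) and *Vcp* (0.0541). By library size alone *Ddit3* had 0.0493 and *Bcl2l11* 0.0392, and 23 wider genes were higher. With the secretory score *Ddit3* had 0.00748. With mice left out, *Sdf2l1* ranged from -0.0346 (without KO replicate 5) to 0.378, and *Bcl2l11* from -0.181 to 0.0309, turning to 0.00242 without KO replicate 5 and to 0.0309 without WT replicate 5. The cause of these turns was not tested.

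With each mouse left out in turn, between 1634 and 2944 genes were called higher and between 1573 and 2563 lower, the lowest count of higher genes being without WT replicate 2. Of the wider genes, 8 to 14 were higher and 10 to 17 lower, with 8 higher without WT replicate 1, 2 or 3. Of the 10 genes, 0 were higher and 1 was lower in each of these fits. *Slc39a14* stayed between -1.57 and -1.21. Replicate numbers are shared between the groups, and with the replicate block 0 of the 10 genes were higher and 1 was lower, *Trib3* at -1.53 (adjusted p = 0.00235 by edgeR). The block gave 10 higher and 13 lower wider genes and 1950 higher and 1898 lower genes in all. Samples with the same number did not deviate together (correlations between -0.17 and 0.18), so the numbers were not taken as pairs. Among the 26 wider genes called, 17 lost their call only with the smooth muscle score, and 9 lost it in further settings too. The sizes behind lost calls differed. With all mice kept, *Creb3l2* stayed between -2.26 and -1.77 and *Creb3l3* between -2.16 and -1.70 on the log2 scale. *Os9* ranged from -0.54 to -0.14 and *Slc7a1* from -0.62 to -0.02. Of the 19 alternatives, the call was lost in 16 for *Rtcb*, 12 for *Creb3*, 11 each for *Ero1l* and *Sel1l*, 10 each for *Ppp1r15a* and *Derl1*, 6 each for *Nupr1* and *Casp12* and 5 for *Wars*. Beside the smooth muscle score and mice left out, these were library size alone and no filter (*Creb3*, *Ero1l*, *Sel1l*, *Derl1*), the replicate block (*Rtcb*, *Creb3*, *Ppp1r15a*, *Derl1*, *Nupr1*), the secretory score (these 5, *Ero1l*, *Casp12* and *Wars*) and, for *Rtcb*, RLE normalization, either filter and robust dispersion. *Chac1* had the fewest counts of the 10 genes, 8 to 61 per library, and the part of depth in its lack of a call was not tested.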

Other observations

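The spread between mice was larger in KO than in WT libraries for 8 of the 10 genes, with a median coefficient of variation of 22.9% and 10.9%. Over all genes tested the spread was larger in KO mice for 76.9%, with medians of 21.4% and 13.5%, so the 10 genes did as most genes did. *Atf3* and *Herpud1* were the exceptions, at 50.7% and 29.4% in WT and at 32.3% and 11.6% in KO libraries.

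Of the 28 tested genes of the integrated stress response, 19 were not called. Among the 9 called, *Psat1*, of serine synthesis, and *Wars*, the tryptophan tRNA ligase, rose by 0.68 and 0.67 on the log2 scale (adjusted p = 0.00914 and 0.0260 by edgeR), each with all 5 KO libraries above all 5 WT libraries. The call of *Wars* was lost without WT replicate 1, 2 or 3 (adjusted p up to 0.0635 by edgeR). *Slc7a1*, a carrier of cationic amino acids, fell by 0.51 (adjusted p = 0.0201 by edgeR), with all 5 KO libraries below all WT libraries. These 3 were the genes of the list called but not described above, and were chosen after their values were seen.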
